A study of Mus musculus with 21 samples.

Results

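NRF2, encoded by Nfe2l2, is the transcription factor that switches on genes for antioxidant and detoxifying enzymes. The genes described are Nfe2l2, its inhibitor Keap1, and 8 genes that NRF2 is known to activate, namely Gclc, Gclm, Slc7a11, Srxn1, Txnrd1, Nqo1, Osgin1 and G6pdx. For each gene the probe set annotated to that gene alone was taken. Of the 10 genes, 9 had such a probe set, 1 each, among the 19937 genes named on the array. For 8 of them the level was high enough to test, out of 11384 genes tested. Slc7a11 stayed under the minimum level of 5 on the log2 scale on all 21 arrays. No probe set is named for G6pdx in the platform annotation used, and it is not analysed here.

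Affymetrix arrays measured RNA of the left ventricle, the main pumping chamber, from mice aged 9-13 weeks of both sexes. The MerCreMer mice carried Tg(αMHC-MerCreMer), a transgene in which the αMHC promoter, active in cardiomyocytes, drives a Cre recombinase held inactive until tamoxifen binds the estrogen receptor parts fused to it. The labels name no floxed allele. Hearts were taken 4 days after the last of 1 or 4 daily intraperitoneal injections, of tamoxifen at 40 mg/kg or of a control solution whose makeup is not given. The 6 groups were MerCreMer mice given 4 tamoxifen injections, MerCreMer mice given 4 control injections, MerCreMer mice given 1 tamoxifen injection, MerCreMer mice given 1 control injection, wild-type mice given 4 tamoxifen injections (3 arrays each) and wild-type mice given 4 control injections (6 arrays). Both MerCreMer control groups carry the transgene too, and no wild-type group received 1 injection. In each group of 3, replicate 1 was male and replicates 2 and 3 were female, so that replicate 1 and male sex cannot be told apart within such a group. In the wild-type control group, replicates 1 to 3 were male and 4 to 6 female. Per-array values below follow the order of the replicate numbers. The labels do not say that replicates were separate animals, so the p-values measure the spread between these samples, which may be technical.

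In unstressed cells KEAP1 holds NRF2 and brings it to a CUL3 ubiquitin ligase, and the proteasome destroys it. Oxidants and electrophiles modify cysteines of KEAP1, newly made NRF2 then escapes, enters the nucleus and, paired with a small MAF protein, binds the antioxidant response element of its target genes. These genes supply glutathione, thioredoxin reduction, quinone detoxification and NADPH. NRF2 activity is therefore set largely by protein stability, and its mRNA level need not follow it. In the heart the pathway is studied as a defence against oxidative damage of cardiomyocytes.

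The promoter stretches below belong to 3 of the called members described below, to Osgin1 and to the gene of the factor itself, and are shown because they hold letters that match the element or its looser form. Gclc has no entry in the table used. Windows of 250 bases before to 50 bases after an annotated start, from RefSeq (GRCm38.p6), were searched on both strands. The core TGACNNNGC was found in the windows of 5 of the 9 members with an entry, Gclm, Txnrd1, Srxn1, Nfe2l2 and G6pdx, and in 12.4% of all 32817 windows (14% of genes). A looser core, TGANNNNGC, was found for 8 of the 9, all but Nqo1, and in 41.3% of windows (45% of genes). The letters TGACTCA, the site of AP-1 factors, which can overlap the looser core, were found for Srxn1 and Osgin1 and in 5.2% of windows (5.95% of genes). Capitals mark every match to any of these. A match is a description of the letters and not a shown binding site, and matches outside these windows were not searched for. In the Srxn1 stretch, the match at 45 bases before the start holds the AP-1 letters inside the looser core, as does the Osgin1 match, and the tighter core of Srxn1 lies outside the stretch, 28 bases after the start. The Txnrd1 stretch belongs to one of several annotated starts. The 5 stretches run 5′ to 3′ on the strand of the gene.
Gclm, chr3:122245387-122245466, plus strand: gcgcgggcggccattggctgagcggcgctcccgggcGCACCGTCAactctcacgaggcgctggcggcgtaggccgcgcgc
Txnrd1, chr10:82859076-82859155, plus strand: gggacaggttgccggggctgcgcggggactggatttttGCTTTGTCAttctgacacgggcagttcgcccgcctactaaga
Srxn1, chr2:152105354-152105523, plus strand: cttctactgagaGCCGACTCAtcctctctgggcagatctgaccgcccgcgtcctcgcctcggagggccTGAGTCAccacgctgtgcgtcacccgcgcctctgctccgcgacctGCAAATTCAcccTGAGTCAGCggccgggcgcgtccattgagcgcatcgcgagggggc
Osgin1, chr8:119437007-119437086, plus strand: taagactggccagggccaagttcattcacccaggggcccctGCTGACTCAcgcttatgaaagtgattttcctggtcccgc
Nfe2l2, chr2:75704854-75704913, minus strand: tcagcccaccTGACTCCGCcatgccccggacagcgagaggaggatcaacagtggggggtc

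The first comparison asked what 4 tamoxifen injections did to these genes in hearts carrying the MerCreMer transgene. Gclc, Gclm, Srxn1 and Txnrd1, which serve glutathione synthesis and the thioredoxin system, rose by 1.39-fold to 1.96-fold against MerCreMer mice given 4 control injections. The mRNA of Nfe2l2 and Keap1, and that of Nqo1 and Osgin1, did not pass the test. The count was thus 4 of 8 higher and 0 lower, at an adjusted p under 0.05 (limma, Benjamini-Hochberg over all genes tested). In the same comparison 23.3% of all genes tested were called, 13.9% higher and 9.41% lower. The median log2 difference of the 8 members was 0.46, beside 0.01 over all genes. For the 4 called members the arrays of the 2 groups did not overlap, as was the case, with tamoxifen higher, for 16.6% of all genes. In these 4 the 3 tamoxifen arrays also lay above all 18 other arrays, a pattern shown by 7.56% of all genes tested. In a fit of only the 6 arrays compared, the 4 members had the same log2 differences with adjusted p between 0.1 and 0.173, and 0 of 8 passed (limma, 18 of all genes called). The array values are bulk tissue levels, in which fewer cells of a type and less RNA per cell cannot be told apart.

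**Figure D1:**
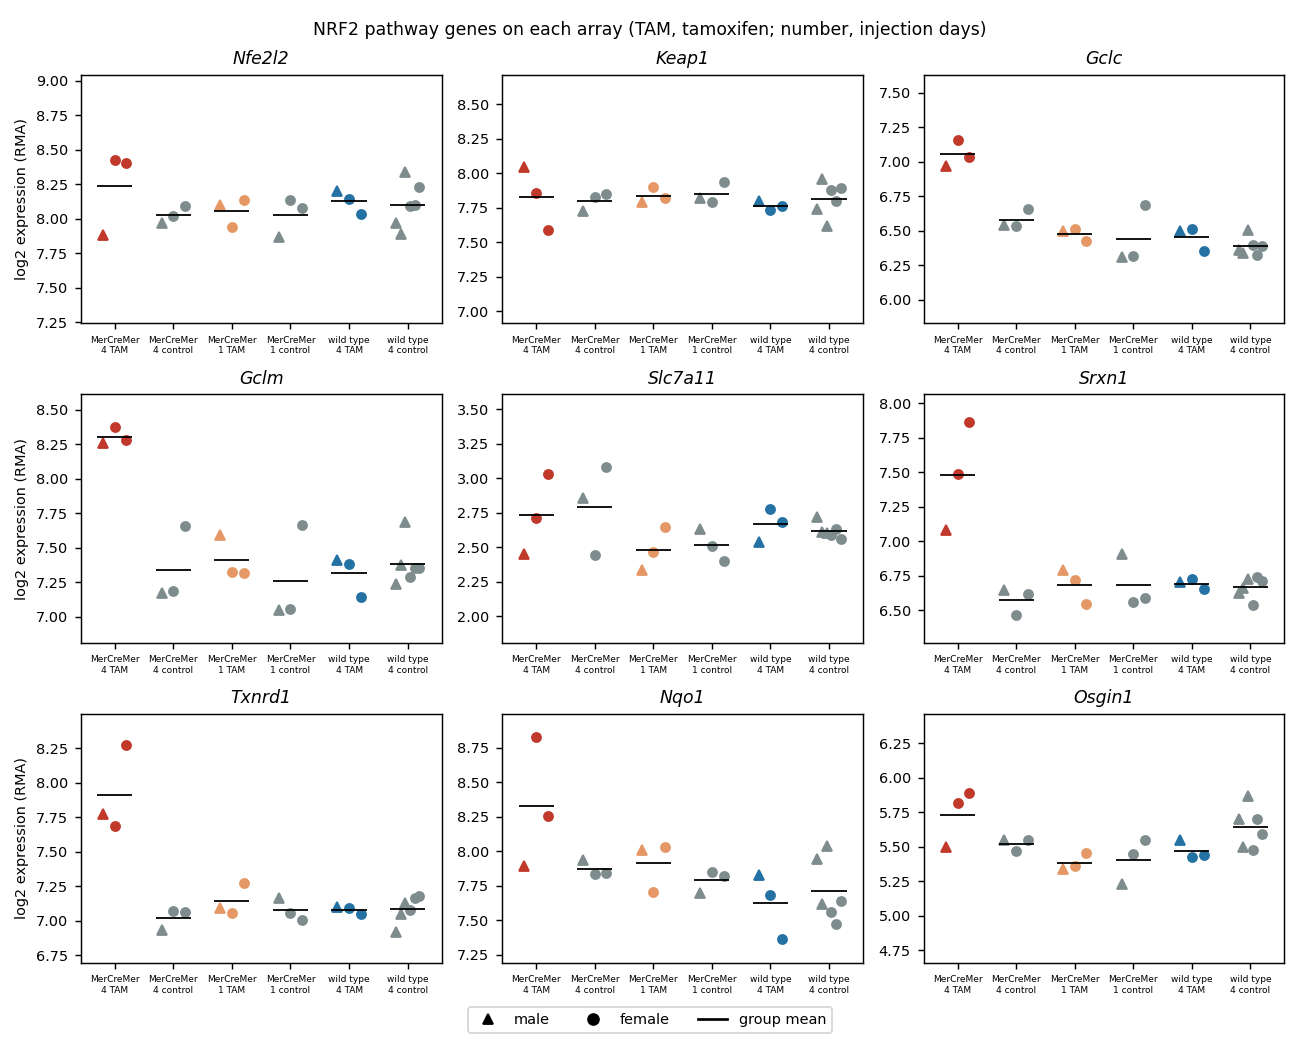
Log2 expression (vertical axis, each panel spanning 1.8 units) of 9 NRF2 pathway genes on every array, by group on the horizontal axis; triangles are males, circles females and bars group means. For Gclc, Gclm, Srxn1 and Txnrd1 the 3 arrays of MerCreMer mice given 4 tamoxifen injections (red) lie above all 18 others, while for Nfe2l2, Nqo1 and Osgin1 the male array of that group lies among the others and Slc7a11 stays below 5.

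Some marker genes of other cells differed too, and the arrays within the group were less alike. Of 19 macrophage and monocyte markers tested (of 21 listed), 18 were higher after 4 tamoxifen injections in MerCreMer hearts, with a median log2 difference of 1.02. At an adjusted p under 0.05 (limma), this effect exceeded that in wild-type hearts for 7 of the 19 (4.45% of all genes). It exceeded that of 1 injection in MerCreMer hearts for 4 of the 19 (2.78% of all genes). One of the 19, Cd14, reached the minimum level on the 3 tamoxifen arrays and 1 other array only, so its place among the tested genes rests on the group where it is high. Examples were the scavenger receptor genes Cd68, with 1.62, and Mrc1, with 1.22. Their summed linear level was 2464 to 7143 on the arrays of MerCreMer mice given 4 tamoxifen injections, against 1931 to 1951 on those given 4 control injections and 1831 to 2439 over all 18 other arrays. Of 16 cardiomyocyte markers, 3 were lower and none higher, led by Ryr2, the calcium release channel, at -1.34, and the median difference was -0.06. Of 10 endothelial markers 3 were lower (median -0.27), as was 1 of 10 fibroblast markers, and 1 of 9 smooth muscle and pericyte markers was higher. Among all genes tested 13.9% were called higher and 9.41% lower, so the fibroblast and smooth muscle counts were near these shares. Of 8 neutrophil markers only Lcn2 reached the minimum level on the 3 arrays needed for testing, and no lymphocyte marker did. The log2 difference of Lcn2 was 2.40. Its tamoxifen arrays spanned 5.02 to 8.22, the lowest of them within the 4.73 to 5.28 of wild-type controls. Of 4 atrial markers tested, 1 was called, Myl7, lower at -3.77 (limma, adjusted p = 0.0211). Its mean was 4.61 in MerCreMer mice given 4 tamoxifen injections, against 8.38 in those given 4 control injections, while the other 4 groups averaged 5.02 to 6.58, so the control group stood high. The 3 arrays of MerCreMer mice given 4 tamoxifen injections correlated with each other at 0.918 to 0.974 over the genes tested, against 0.982 or more within each other group. The part of these differences in the levels of the NRF2 genes was not tested, and values by array are given below.

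Gclc and Gclm encode the catalytic and the modifier subunit of glutamate-cysteine ligase, the first enzyme of glutathione synthesis. Gclm (chromosome 3, 122245487 to 122267215) was at 8.26, 8.38 and 8.28 in MerCreMer mice given 4 tamoxifen injections, against 7.17, 7.19 and 7.66 in those given 4 control injections. The tamoxifen arrays lay close together, and each exceeded the highest of the 18 other arrays. The means were 8.31 ± 0.06 with tamoxifen and 7.34 ± 0.28 with control injections (SD, n = 3 each). The log2 difference was 0.97 (95% interval 0.63 to 1.30), a rise of 1.96-fold, with an adjusted p of 0.000408 in the limma fit. Replicate 3 of each MerCreMer control group carried the highest Gclm of its group, 7.66 in each case.

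Gclc (chromosome 9, 77754535 to 77794489) was at 6.97, 7.16 and 7.04 in MerCreMer mice given 4 tamoxifen injections, against 6.54, 6.53 and 6.66 in those given 4 control injections. The groups did not overlap, and the gap was smaller than for Gclm. The means were 7.05 ± 0.09 with tamoxifen and 6.58 ± 0.07 with control injections (SD, n = 3 each). Its log2 difference was 0.48 (95% interval 0.29 to 0.67), a rise of 1.39-fold (limma, adjusted p = 0.00139). When each group was weighted by its own variance the same difference had an adjusted p of 0.0501 and was no longer called. Slc7a11, the cystine transporter subunit that brings in the limiting amino acid for glutathione, was at 2.45, 2.71 and 3.03 with tamoxifen, against 2.86, 2.45 and 3.08 with control injections. These overlapping values lay near the bottom of the scale on all 21 arrays (2.34 to 3.08). With no filter on low levels its log2 difference was -0.06 (SE 0.14, limma adjusted p = 0.846).

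Txnrd1 encodes cytosolic thioredoxin reductase, which uses NADPH to reduce thioredoxin. Txnrd1 (chromosome 10, 82833951 to 82897724) was at 7.77, 7.68 and 8.27 in MerCreMer mice given 4 tamoxifen injections, against 6.93, 7.07 and 7.06 in those given 4 control injections. All 3 tamoxifen arrays were high, replicate 3 most, and the lowest of them exceeded the highest of the 18 other arrays, 7.27. The means were 7.91 ± 0.32 with tamoxifen and 7.02 ± 0.08 with control injections (SD, n = 3 each). The log2 difference of 0.89 (95% interval 0.65 to 1.13), or 1.85-fold, had the smallest adjusted p of the members, 4.04e-05 in the limma fit.

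Srxn1 encodes sulfiredoxin, which repairs over-oxidised peroxiredoxins. Srxn1 (chromosome 2, 152105524 to 152111376) was at 7.08, 7.49 and 7.86 in MerCreMer mice given 4 tamoxifen injections, against 6.64, 6.47 and 6.62 in those given 4 control injections. The groups did not overlap, but the tamoxifen arrays spread widely, and the male array was closest to the control level. The means were 7.48 ± 0.39 with tamoxifen and 6.58 ± 0.10 with control injections (SD, n = 3 each). The log2 difference was 0.90 (95% interval 0.61 to 1.20), a rise of 1.87-fold (limma, adjusted p = 0.00024).

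The NAD(P)H quinone oxidoreductase gene Nqo1, widely used as a marker of NRF2 activity, did not pass the test. Nqo1 (chromosome 8, 107388225 to 107403205) was at 7.89, 8.82 and 8.26 in MerCreMer mice given 4 tamoxifen injections, against 7.94, 7.84 and 7.84 in those given 4 control injections. Replicates 2 and 3 lay above all 18 other arrays, while replicate 1 lay within the control range. The log2 difference was 0.45 (95% interval 0.06 to 0.85, limma adjusted p = 0.0867). Without replicate 1 of the tamoxifen group it was 0.73, with an adjusted p of 0.00435, and without replicate 2 it was 0.18 (adjusted p = 0.4).

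Osgin1, an oxidative stress-induced growth inhibitor gene (chromosome 8, 119425882 to 119446257), was at 5.50, 5.82 and 5.89 in MerCreMer mice given 4 tamoxifen injections, against 5.55, 5.47 and 5.55 in those given 4 control injections. As with Nqo1, replicates 2 and 3 were above the control arrays and replicate 1 was between them. Its log2 difference was 0.21 (95% interval -0.02 to 0.44, limma adjusted p = 0.168), and 0.33 without replicate 1 of the tamoxifen group (adjusted p = 0.0317) but 0.14 without replicate 3 (adjusted p = 0.457). One array of the wild-type controls, replicate 3 at 5.87, lay above 2 of the 3 tamoxifen arrays.

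Nfe2l2 itself (chromosome 2, 75675513 to 75704663) was at 7.88, 8.42 and 8.40 in MerCreMer mice given 4 tamoxifen injections, against 7.97, 8.02 and 8.09 in those given 4 control injections. Replicates 2 and 3 were the highest of all 21 arrays, and replicate 1 was lower than each of its 3 controls. The log2 difference was 0.21 (95% interval -0.05 to 0.47, limma adjusted p = 0.231). Without replicate 1 of the tamoxifen group it was 0.37, with an adjusted p of 0.0257, while it was 0.13 without replicate 2 (adjusted p = 0.481) and 0.14 without replicate 3 (adjusted p = 0.514).

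Keap1 (chromosome 9, 21229730 to 21239332) was at 8.04, 7.86 and 7.59 in MerCreMer mice given 4 tamoxifen injections, against 7.73, 7.83 and 7.85 in those given 4 control injections. The tamoxifen arrays fell on both sides of the control arrays, with the male array highest and replicate 3 lowest. The log2 difference was 0.03 (95% interval -0.19 to 0.24, limma adjusted p = 0.873), which leaves room for changes of up to 1.18-fold upward at this number of arrays.

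**Figure D2:**
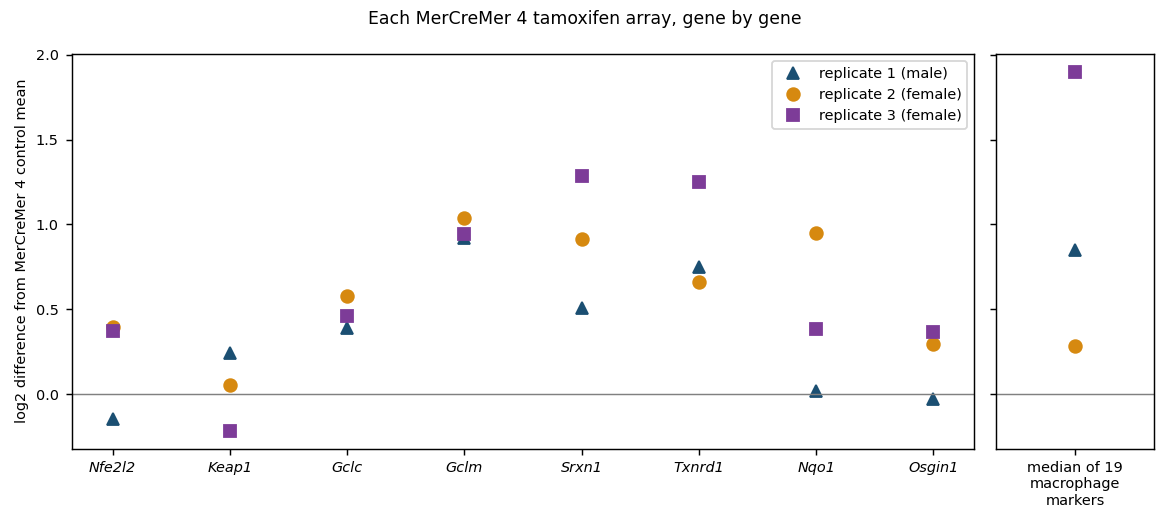
Log2 difference (vertical axis) of each of the 3 arrays of MerCreMer mice given 4 tamoxifen injections. The 8 tested members (left) are set against the mean of MerCreMer mice given 4 control injections. The median of 19 macrophage markers (right) is set against the mean of both MerCreMer control groups. The macrophage median was 0.85, 0.28 and 1.90 on replicates 1, 2 and 3, while Gclm was raised by 0.92, 1.04 and 0.94 and Nqo1 by 0.02, 0.95 and 0.38.

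Set beside the macrophage markers array by array, the members did not share one order. The median of the 19 markers, relative to the mean of both MerCreMer control groups, was 0.85, 0.28 and 1.90 on tamoxifen replicates 1, 2 and 3. The member differences below are from the mean with 4 control injections only. Each of the 19 markers was highest on replicate 3. Of the 8 members, 4 were highest on replicate 2, 3 on replicate 3 and 1 on replicate 1. On replicate 2, where the marker median was lowest, Gclm was 1.04 above the control mean, Srxn1 0.91, Txnrd1 0.66 and Gclc 0.58. On replicate 3, where it was highest, the corresponding differences were 0.94 for Gclm, 1.29 for Srxn1, 1.25 for Txnrd1 and 0.46 for Gclc. On replicate 1, with the marker median between those of the others, they were 0.92 for Gclm, 0.51 for Srxn1, 0.75 for Txnrd1 and 0.39 for Gclc. Over these 3 arrays Gclm was raised by 0.92 to 1.04 and Gclc by 0.39 to 0.58, while the marker median ran from 0.28 to 1.90. Txnrd1 ran in the order of the markers. Srxn1 was also highest on replicate 3, but was lowest on replicate 1 and not on replicate 2, where the markers were lowest. The part of macrophages in the member differences was not tested.

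Among 15 tested regulators of NRF2 (of 16 listed), 4 were higher and 3 lower after 4 tamoxifen injections in MerCreMer hearts, with a median log2 difference of 0.04, beside 13.9% higher and 9.41% lower among all genes tested. The 7 calls fell to 0 with only the arrays compared or with female arrays only, and to 1 when each group was weighted by its own variance. Maff and Mafk encode small MAF partners of NRF2. Maff averaged 5.49 ± 0.56 with tamoxifen and 4.61 ± 0.18 with control injections (SD, n = 3 each). It reached the minimum level on the 3 tamoxifen arrays and on 2 of the 18 others, so it was tested only because it was high with tamoxifen, and its place among the 4 higher genes is a description. Mafk rose by 0.42 on the log2 scale (limma, adjusted p = 0.0113), a call lost without replicate 3 of the tamoxifen group (0.29, adjusted p = 0.0578) and also without 1 of the control arrays. Sqstm1, encoding the autophagy receptor p62 that binds KEAP1, spanned 10.59 to 11.10 with tamoxifen, against 10.24 to 10.57 with control injections, a log2 difference of 0.45 (adjusted p = 0.00719). The groups did not overlap for Sqstm1. Dpp3, whose protein also binds KEAP1, rose by 0.34 on the log2 scale (adjusted p = 0.0245), a call lost without any one of 3 arrays, among them replicate 3 of the tamoxifen group (0.18, adjusted p = 0.126). Unlike the macrophage markers, Sqstm1 was raised most on replicate 2, by 0.71, and least on replicate 3, by 0.20. Maff, Mafk and Dpp3 had their largest difference on replicate 3.

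The 3 regulators that fell were Bach2, Gsk3b and Crebbp. Bach2, a repressor that also pairs with small MAF proteins, spanned 4.68 to 5.18 with tamoxifen, against 5.30 to 5.48 with control injections, and fell by 0.46 on the log2 scale (limma, adjusted p = 0.00324). Gsk3b, a kinase that marks NRF2 for degradation independently of KEAP1, fell by 0.25 (adjusted p = 0.0216). Crebbp, a coactivator acetyltransferase, fell by 0.23 (adjusted p = 0.0342). The Gsk3b call was lost without any one of 3 arrays and the Crebbp call without any one of 5, among the 21 single arrays left out in turn.

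Of 28 other NRF2 target genes tested (of 38 listed), 11 were higher and 0 lower, with a median log2 difference of 0.14, beside 13.9% of all genes tested called higher. Hmox1, the haem-degrading enzyme that is also a target of other stress factors, was at 8.50, 8.43 and 8.50 in MerCreMer mice given 4 tamoxifen injections, against 6.03, 5.87 and 6.25 in those given 4 control injections. Its arrays were nearly equal within the tamoxifen group and far above all others, a rise of 5.39-fold (log2 difference 2.43, limma adjusted p = 1.06e-07). Hmox1 was the one of the 28 still called in the fit of the 6 compared arrays alone, with an adjusted p of 0.00609.

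A further pair of glutathione genes rose with Gclc and Gclm. Gsr, glutathione reductase, spanned 7.71 to 7.77 with tamoxifen, against 7.19 to 7.26 with control injections, a log2 difference of 0.50 (limma, adjusted p = 0.0023). Gss, glutathione synthetase, spanned 7.02 to 7.25 with tamoxifen, against 6.50 to 6.76 with control injections, a log2 difference of 0.54 (adjusted p = 0.000416). Neither gene's groups overlapped, and Gsr was raised by 0.48 to 0.53 on all 3 tamoxifen arrays. Pir, encoding the iron-binding nuclear protein pirin, rose by 0.67 (adjusted p = 0.00117), most on replicate 2, by 0.93.

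Genes of the pentose phosphate pathway, which makes NADPH, and of the peroxiredoxin system were among the 11. Pgd, 6-phosphogluconate dehydrogenase, spanned 7.67 to 8.59 with tamoxifen, against 7.34 to 7.49 with control injections, a log2 difference of 0.61 (limma, adjusted p = 0.00692). Its difference was 1.16 on replicate 3, where the macrophage markers were highest, and 0.23 on replicate 2, where they were lowest, and without replicate 3 its log2 difference was 0.33. Prdx1, a peroxiredoxin, rose by 0.38 (adjusted p = 0.0123), with 0.53 on replicate 1 and 0.20 on replicate 3. The remaining 5, listed here after their values were seen, were Txn1, Tkt, Ugdh, Mgst1 and Fth1, with log2 differences of 0.42, 0.56, 0.57, 0.97 and 0.16. Txn1, Tkt and Ugdh were highest on replicate 3, where the macrophage markers were highest, at 0.81, 1.13 and 1.20, against 0.12 to 0.38 on the other tamoxifen arrays. Mgst1, a microsomal glutathione transferase, owed most of its difference to replicate 1, the male array, at 2.02 against 0.30 and 0.60 on the other arrays. Over all groups Mgst1 was higher in males by 0.71 on the log2 scale (limma, adjusted p = 0.147). The part of sex in the value of replicate 1 was not tested. The cytosolic glutathione transferases tested did not pass, with differences between -0.53 for Gsta3 and 0.10 for Gstm2, also picked after their values were seen.

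**Figure D3:**
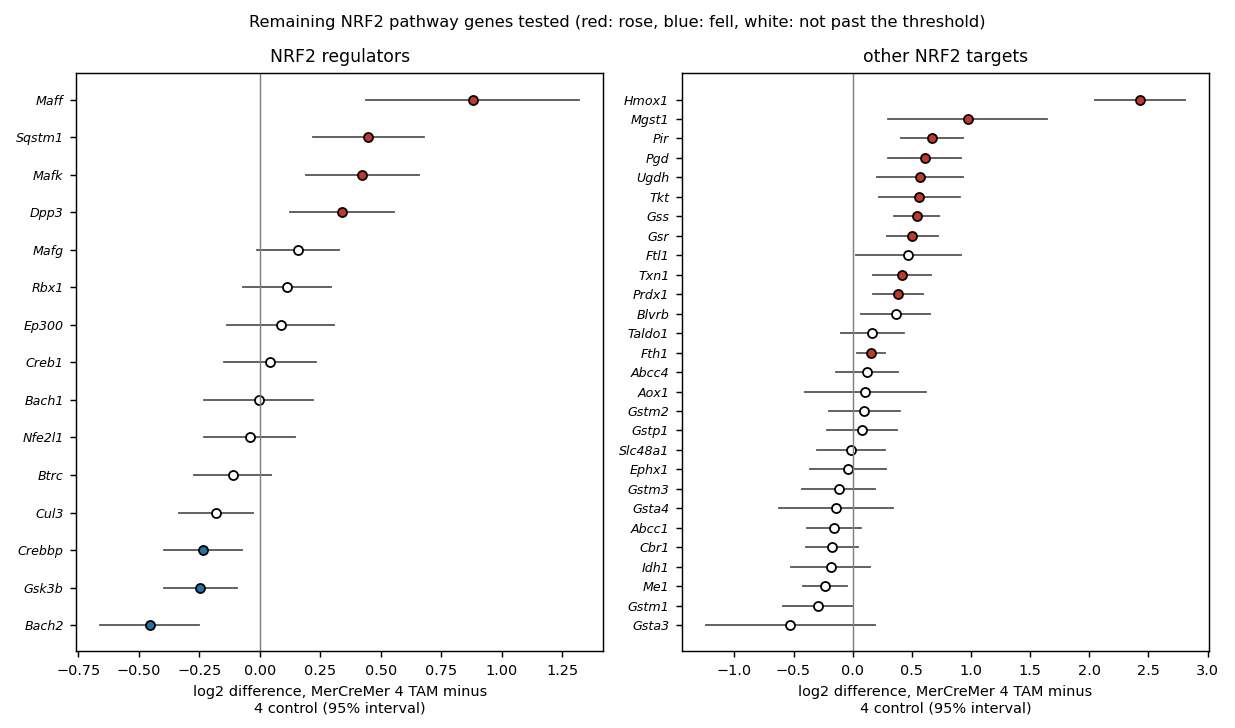
Log2 difference between MerCreMer mice given 4 tamoxifen and 4 control injections (horizontal axis, with 95% intervals from limma) for 15 regulators of NRF2 (left) and 28 other NRF2 targets (right). Red points rose and blue points fell at an adjusted p under 0.05: 4 and 3 of the regulators, 11 and 0 of the targets, with Hmox1 at 2.43.

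The second comparison asked whether a single injection did the same. In MerCreMer mice given 1 tamoxifen injection, against those given 1 control injection, 0 of the 8 members were called by limma, and 0 had an unadjusted p under 0.05. Of all genes 0.00878% (1 gene) was called. The members' log2 differences ran from -0.02 for Osgin1 to 0.16 for Gclm, and the widest interval, that of Nqo1, ran from -0.27 to 0.52. Gclm was at 7.59, 7.32 and 7.32 with 1 tamoxifen injection, against 7.05, 7.06 and 7.66 with 1 control injection. Txnrd1 was at 7.09, 7.05 and 7.27 with 1 tamoxifen injection, against 7.17, 7.06 and 7.01 with 1 control injection. Srxn1 was at 6.79, 6.72 and 6.54 with 1 tamoxifen injection, against 6.91, 6.56 and 6.59 with 1 control injection. The groups overlapped for all 3 genes. Neither the 15 regulators nor the 28 other targets held a called gene.

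The third comparison set tamoxifen in wild-type mice against their controls, which bears on the drug without the transgene. Again 0 of the 8 members were called by limma and 0 had an unadjusted p under 0.05, with 0% of all genes called and 295 of 11384 at an unadjusted p under 0.05. The members' log2 differences ran from -0.18 for Osgin1 to 0.06 for Gclc. Gclm was at 7.41, 7.38 and 7.15 in wild-type mice given tamoxifen, against a lowest value of 7.24, a median of 7.36 and a highest of 7.68 in wild-type controls. Txnrd1 was at 7.10, 7.09 and 7.05 in wild-type mice given tamoxifen, against a lowest of 6.92, a median of 7.10 and a highest of 7.18 in wild-type controls. The groups overlapped for both. The intervals of Gclm (-0.36 to 0.22) and Txnrd1 (-0.22 to 0.19) did not reach the lower bounds of 0.63 and 0.65 found in MerCreMer hearts after 4 injections.

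**Figure D4:**
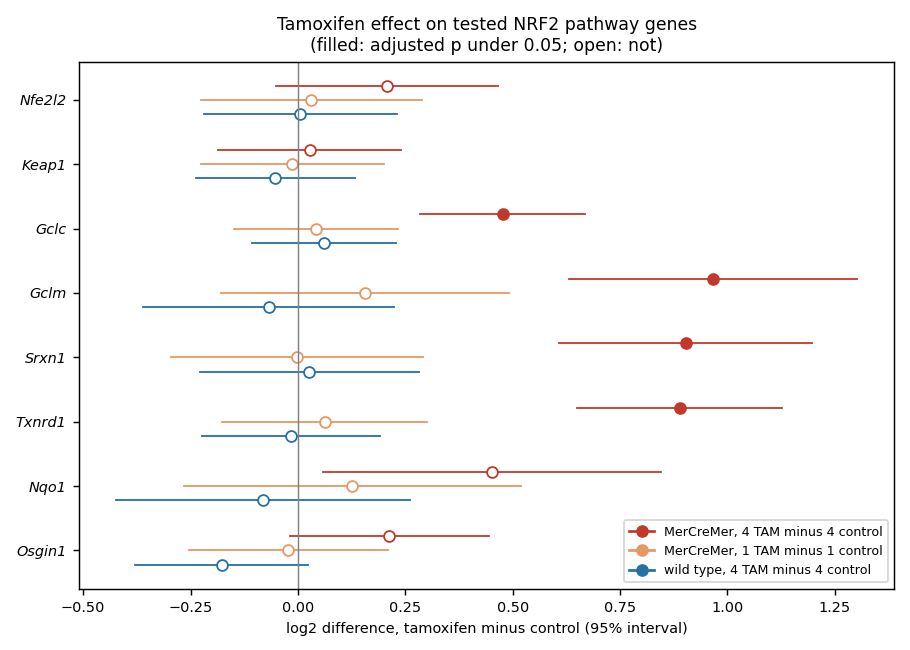
Log2 difference, tamoxifen minus control (horizontal axis), of the 8 tested members with 95% intervals, for MerCreMer mice after 4 injections (red), MerCreMer mice after 1 injection (orange) and wild-type mice after 4 injections (blue). Filled points, at an adjusted p under 0.05, are seen for Gclc, Gclm, Srxn1 and Txnrd1 in red, and the orange and blue points lie between -0.18 and 0.16.

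Whether the effects differed was tested directly. The effect of 4 tamoxifen injections in MerCreMer hearts minus that in wild-type hearts was called for 4 of 8 members, all positive, beside 7.98% of all genes called and 4.45% called positive. The difference of effects was 1.04 for Gclm (limma, adjusted p = 0.00612), 0.90 for Txnrd1 (adjusted p = 0.00135) and 0.88 for Srxn1 (adjusted p = 0.00743). For Gclc it was 0.42 (adjusted p = 0.0417), a call lost without any one of 14 of the 21 arrays. The count of 4 fell to 2 when each group was weighted by its own variance and to 1 with female arrays only. With the replicate block it fell to 0, though replicate numbers did not pair the samples. The difference of effects was 0.53 for Nqo1 (adjusted p = 0.192), 0.39 for Osgin1 (0.107), 0.20 for Nfe2l2 (0.468) and 0.08 for Keap1 (0.759). The effect of 4 injections minus that of 1 injection in MerCreMer hearts was called for 3 of 8 members, all positive, beside 5.78% of all genes called and 2.78% called positive. It was 0.90 for Srxn1 (adjusted p = 0.0112), 0.83 for Txnrd1 (adjusted p = 0.00509) and 0.81 for Gclm (adjusted p = 0.0413), the last lost without any one of 11 of the 21 arrays, and 0.43 for Gclc (adjusted p = 0.0553). Both differences of effects use the same MerCreMer arrays as the first comparison and are not independent of it. Among the other lists, 3 of 15 regulators and 6 of 28 other targets were called in the difference between genotypes, all positive. The regulators were led by Sqstm1 (0.58, limma adjusted p = 0.0201) and Mafk (0.57, adjusted p = 0.0234), the targets by Hmox1 (2.33) and Gss (0.50). The 15 include Maff, tested only because it was high with tamoxifen, so the regulator count is a description. In the difference between 4 and 1 injections, Bach2 (-0.48, adjusted p = 0.0483) was the one regulator called, a call kept in 2 of the 21 fits that left out 1 array, and 3 other targets were called, led by Hmox1 (2.22) and Pir (0.72).

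The transgene alone was examined in control mice. In MerCreMer mice given 4 control injections, against wild-type controls, 0 of 8 members were called by limma, beside 0.676% of all genes. One member, Gclc, had an unadjusted p under 0.05 (0.0312), as did 1694 of the 11384 genes tested. The log2 difference of Gclc was 0.19 (adjusted p = 0.273). Its 6.54, 6.53 and 6.66 in MerCreMer controls lay above all 6 wild-type controls, whose lowest, median and highest values were 6.33, 6.37 and 6.51, an arrangement shown by 8.49% of all genes tested. In a split of the arrays into 2 sets by 10 bright probe sets, which the labels do not give, 2 of these 3 MerCreMer controls lay in a set with no wild-type array, and the part of this in the difference was not tested. The other MerCreMer control group, given 1 control injection, had Gclc at 6.31, 6.32 and 6.69, which overlapped the wild-type controls. By group means Gclc ran in the order MerCreMer with 4 tamoxifen injections (mean 7.05), MerCreMer with 4 control injections (6.58) and then 4 groups from 6.48 to 6.39 whose neighbours overlapped. The second of these overlapped the MerCreMer group given 1 control injection, which reached 6.69. For Gclm, Srxn1 and Txnrd1 MerCreMer with 4 tamoxifen injections stood apart, and the 5 other groups overlapped their neighbours, between 7.41 and 7.26, 6.69 and 6.58, and 7.14 and 7.02. For Nfe2l2, Keap1, Nqo1, Osgin1 and Slc7a11 no neighbours in the order of group means were separate.

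Males and females were compared over all groups in the same model. None of the 8 members was called between males and females by limma, and 0 had an unadjusted p under 0.05, beside 0.29% of all genes called. The log2 differences, male minus female, ran from -0.12 for Nfe2l2 to 0.06 for Nqo1. In wild-type controls Nqo1 spanned 7.62 to 8.04 in the 3 males, against 7.47 to 7.64 in the 3 females. These ranges overlap narrowly. In MerCreMer mice given 4 tamoxifen injections the single male was lower than the mean of the females by 0.65 for Nqo1 and by 0.53 for Nfe2l2, a contrast that rests on 1 male array.

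The genes with the most similar group means were found for 3 members, as the smallest root mean square difference between the 6 group means, each set of means centred on its own average. For Txnrd1 they were Plau (0.02), the urokinase plasminogen activator, Ro60 (0.03) and Ckap4 (0.03). For Srxn1 they were Serp1 (0.03), H1f1 (0.03) and S100a10 (0.04). For Nfe2l2 they were Osbpl9 (0.01), Dhx15 (0.01) and Usp47 (0.01). The 6 neighbours of Srxn1 and Txnrd1 differed by 0.87 to 0.93 on the log2 scale between 4 tamoxifen and 4 control injections in MerCreMer mice, and the 3 of Nfe2l2, none of them called, by 0.21 to 0.23. Without replicate 3 of the tamoxifen group the differences of Serp1, H1f1, S100a10 and Ckap4 were 0.38, 0.34, 0.39 and 0.46, and S100a10 was no longer called (adjusted p = 0.0958). Likeness over 6 group means is a description, since each mean with tamoxifen rests on the same 3 arrays. The neighbours were chosen by these means, so differences near those of the members follow from the choice.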

How the data were processed

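Total RNA of left ventricle was measured on 21 arrays in 6 groups, taken with sex from the labels. The deposited values are log2 expression made with RMA, per the submitters' processing notes, with no version given. RMA corrects background, quantile normalises the arrays and summarises probes, so a shift shared by most genes would be removed. Array medians were 4.57 to 4.72. The platform annotation named 1 gene for 21640 of 34760 probe sets. For each gene the probe set with the highest mean was used, and genes reaching log2 5 on at least 3 arrays were tested. All arrays entered 1 linear model with a mean for each of the 6 groups and a term for sex (limma 3.58.1, functions lmFit and eBayes, R 4.3.3). It left 14 residual degrees of freedom, to which eBayes added 3.98. The Benjamini-Hochberg adjustment covered all 11384 genes. The model was tested on simulated data in which all groups had the same spread. On the real arrays the mean variance was 0.123 in MerCreMer mice given 4 tamoxifen injections, against 0.0180 to 0.0272 in the other groups. The simulated data do not cover this unequal spread. The members, gene lists and tests were chosen with earlier results of these data known. All members and Hmox1 are named. Of each other pathway list, up to 6 called genes per direction with the smallest adjusted p are named in the first comparison and 2 in the others. Of each cell type list, up to 2 called genes serve as examples. Alternatives changed the sex term, weights, arrays, normalisation, filter, probe set choice and replicate block. The number of arrays limits precision. Replicate numbers did not pair the samples.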

Additional observations from a re-analysis of the deposited data

Results flagged for a closer look

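One level stood apart within its group. Gclm in wild-type controls was highest on replicate 3, at 7.68, with a gap to the next array of 0.694 of the group's range, above the limit of 0.625 for 6 arrays. The 9 members with a probe set were examined in this way, and chance alone sets apart about 1 in 20 groups. Its cause was not tested.

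The effect of 4 tamoxifen injections differed between MerCreMer and wild-type hearts, by a test of the difference in limma, for Gclm (1.04 on the log2 scale), Txnrd1 (0.90), Srxn1 (0.88), Gclc (0.42) and Hmox1 (2.33). The effect of 4 injections differed from that of 1 injection in MerCreMer hearts for Srxn1 (0.90), Txnrd1 (0.83), Gclm (0.81) and Hmox1 (2.22). These differences share the arrays of MerCreMer mice given 4 injections.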

How the results depend on the processing

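No called difference changed sign. Of 8 members, 4 were called for 4 tamoxifen against 4 control injections in MerCreMer mice. The count was 0 with only the arrays compared, 7 with female arrays only and 1 within the MerCreMer-only array set described below. It was 4 to 7 when each array was left out in turn, with 7 without replicate 1 of the tamoxifen group. Regulators called numbered 7, and 1 when groups were weighted by their own variance, 2 with array weights and 0 with only the arrays compared. They numbered 4 with the replicate block, 0 with female arrays only and 1 within the MerCreMer-only array set. With 1 array left out they numbered 4 to 8. The 4 came without replicate 1 or 2 of the MerCreMer mice given 4 control injections or replicate 3 of those given 4 tamoxifen injections. Other targets called numbered 11, and 4 with own-variance weights, 1 with only the arrays compared and 6 with female arrays only. They numbered 2 within the MerCreMer-only array set and 7 to 14 with 1 array left out. With 1 array left out the lowest value, 7, was without replicate 1 or without replicate 3 of the MerCreMer mice given 4 control injections. Members called in the difference between genotypes numbered 4, and 2 with own-variance weights, 0 with the replicate block, 1 with female arrays only and 3 to 6 with 1 array left out. Members called in the difference between 4 and 1 injections numbered 3, and 0 with only the arrays compared and 1 with the replicate block. They numbered 1 with female arrays only, 0 within the MerCreMer-only array set and 2 to 4 with 1 array left out. With the looser core, the promoter windows of 8 members matched in place of those of 5. The cause was not tested, except that fewer arrays leave fewer degrees of freedom.

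Same-numbered arrays did not deviate together in every pair (correlations -0.20 to 0.28), so the numbers are not taken as pairs. With the replicate block, the first comparison called 4 members and 1655 of all genes, against 2654 without it. All genes called ranged from 18 with only the arrays compared to 3846 without replicate 2 of the tamoxifen group, and 1648 without replicate 3 of the control group. With 1 array left out, all genes called numbered 10 to 471 between MerCreMer and wild-type mice given 4 control injections, 504 to 2242 in the difference between genotypes and 378 to 1956 in that between 4 and 1 injections, and 1 to 1070, 27 to 988 and 4 to 706 under the other alternatives. The MerCreMer-only array set holds 8 of the 12 MerCreMer arrays, and the other set holds 4 with all 9 wild-type arrays. Both were inferred from 10 bright probe sets after the data were seen, and the labels do not give them. Log2 differences within the 2 sets were 1.20 (1 array against 1) and 0.85 (2 against 2) for Gclm, and 0.75 and 0.96 for Txnrd1. Weighting arrays gave 1.22, 0.24 and 0.07 to replicates 2, 1 and 3 of the tamoxifen group.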
